A study of Homo sapiens with 6 samples.

Results

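The BH3-only and anti-apoptotic proteins of the BCL2 family decide whether the outer mitochondrial membrane is breached in apoptosis, and 10 of their genes are described here: the BH3-only genes PMAIP1, BCL2L11, BBC3, BID, BAD, BIK and BMF, and the anti-apoptotic genes MCL1, BCL2L1 and BCL2. A gene was taken where the platform annotation gave a row of the deposited table exactly 1 symbol, and a gene with several rows was represented by the one brightest on average over the 6 arrays. Under this rule 9 of the 10 genes were measured, among 22465 genes in all, and BBC3, which encodes PUMA, had no row of its own and was not analysed here. PC3 is an established human prostate cancer cell line. One arm of 3 arrays held RNA of PC3 cells transiently transfected with a synthetic precursor of miR-130a, and the other arm of 3 arrays held RNA of PC3 cells transfected with a negative control precursor, so transfection itself is common to both arms. The series describes the transfections as independent experiments, and the dose and the time between transfection and harvest are not given in the sources used here. The comparison asks which transcripts differ when miR-130a is supplied.

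BH3-only proteins carry the short BH3 helix and act as sensors of damage, stress or lost survival signals. Anti-apoptotic proteins hold this helix in a surface groove and keep the effectors BAX and BAK inactive. When BH3-only proteins fill enough grooves, or engage the effectors directly, the effectors form pores, cytochrome c leaves the mitochondria and caspases are activated. The partners are selective: NOXA, the product of PMAIP1, binds mainly MCL1, whereas BIM, the product of BCL2L11, binds all of the anti-apoptotic proteins. Transcription sets the amount of several BH3-only proteins, whereas BID and BAD are mainly controlled after translation, by cleavage and by phosphorylation.

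Values are log2 expression as deposited, and a difference is the mean of the miR-130a arrays minus the mean of the negative control arrays. Levels of different genes come from different probes, so the members' levels were not ranked against each other, and the median row serves only as a rough guide to dim rows. A transcript cluster sums isoforms, so the long and short products of BCL2L1, MCL1 and BCL2L11 cannot be told apart within a row. In RNA of a whole culture, a lower level in every cell and fewer cells that express a gene cannot be told apart either. Negative control 3 stood apart from the other arrays: it correlated with negative controls 1 and 2 at r = 0.9923 and 0.992 over 67528 rows, while pairs of the other arrays correlated at 0.9939 to 0.9967. The epithelial keratin genes KRT8 and KRT18 lay at 9.16 and 9.61 in the controls and vimentin (VIM) at 10.52, and the median row lay at 4.995. With miR-130a, KRT8, KRT18 and VIM lay at 9.32, 9.99 and 10.42. The rise of KRT18 passed an adjusted p of 0.05 (0.018), while KRT8 (0.143) and VIM (0.389, limma) did not pass. The androgen-regulated genes KLK2 and KLK3, which PC3 is known to express weakly, lay at 4.99 and 5.88. The leukocyte genes PTPRC and CD3E lay at 2.72 and 5.29 and the endothelial genes PECAM1 and CDH5 at 6.37 and 5.48, so a row above the median does not by itself show that a gene is expressed. All 9 members lay above the median row.

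Of the 9 measured members, 1 changed at an adjusted p below 0.05 (limma): PMAIP1 rose, and the other 8 did not pass. Over all genes tested 4.23% passed, 2.48% as rises and 1.74% as falls, and the 11.1% among the members rests on 1 gene. The share over all genes includes dim rows, whereas all 9 members lay above the median row. When only genes above it were tested, 1400 of 16089 genes and 3 of the 9 members passed, namely PMAIP1, MCL1 and BCL2L11. The 558 rises and 392 falls among all genes became 384 and 136 when each array was centred on its median. The median difference of the members was 0.04, against -0.01 for all genes tested. The values of the arms did not overlap for 4 of the 9 members, PMAIP1, BMF and MCL1 higher and BCL2L11 lower. Of all genes, 23.6% showed arms that did not overlap, 11.7% with miR-130a above and 11.9% below. Without negative control 3, BMF, MCL1 and BCL2L11 passed the threshold beside PMAIP1, which made 4 of 9 members against 10.0% of all genes. The members were chosen with earlier results of these data known, so these shares do not test the family.

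The promoters of the member that passed and of the member that lay lower on every miR-130a array are shown because they are the 2 ends of the range of differences. RefSeq windows on GRCh38.p14, running from 250 bases before a gene's start to 50 bases after it, were found for 8 of the 10 genes. PMAIP1 lies on chromosome 18 (window chr18:59899746-59900045, plus strand, 71.3% G and C) and BCL2L11 on chromosome 2 (window chr2:111120664-111120963, plus strand, 74.7% G and C). Capitals mark matches to TGACG, the core of a cAMP response element bound by ATF and CREB factors, in PMAIP1, and to GTAAACA, a motif of FOXO factors, in BCL2L11.
PMAIP1: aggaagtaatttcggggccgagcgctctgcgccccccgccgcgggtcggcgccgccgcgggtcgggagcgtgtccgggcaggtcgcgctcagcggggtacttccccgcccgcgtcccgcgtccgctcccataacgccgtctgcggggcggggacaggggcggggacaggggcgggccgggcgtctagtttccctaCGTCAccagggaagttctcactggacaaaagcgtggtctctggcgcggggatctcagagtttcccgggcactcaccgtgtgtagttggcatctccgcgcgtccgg
BCL2L11: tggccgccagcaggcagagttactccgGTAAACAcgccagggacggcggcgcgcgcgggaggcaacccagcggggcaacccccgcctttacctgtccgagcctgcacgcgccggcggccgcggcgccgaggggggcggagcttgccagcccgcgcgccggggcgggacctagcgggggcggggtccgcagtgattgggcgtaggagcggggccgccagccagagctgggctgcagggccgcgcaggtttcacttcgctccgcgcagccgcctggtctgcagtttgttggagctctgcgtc
Both strands were searched, and the PMAIP1 match is the reverse complement of the motif, with its first base at position -55 from the start. TGACG matched in 24.6% of all 35116 windows of this length, so it is common among promoters. Among the members it matched in 6 of 15 windows, which belong to PMAIP1, BAD, BCL2, BCL2L1 and BMF. Windows of the same gene can overlap, as those of BAD do, and a difference between these shares was not tested. GTAAACA matched in 3.42% of all windows and, among the members' 15 windows, in that of BCL2L11, with its first base at position -223. TGATGNAA, the composite element of ATF and C/EBP factors, matched in 3.62% of all windows and in none of the members'. CACGTG, the E-box of MYC and related factors, matched in 7.26% of all windows and in 3 of the members' 15, which belong to BID and BBC3. A match describes the letters of the window and not a bound site.

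PMAIP1 encodes NOXA, a small BH3-only protein that occupies MCL1 and hastens its degradation, and that is known to be induced by p53 and by the stress factor ATF4. On the negative control arrays it lay at 8.72, 8.75 and 8.64, and on the miR-130a arrays at 9.34, 9.14 and 9.38. Each miR-130a array was higher than each control array, and the smallest gap between the arms (0.39) exceeded the range within either arm (0.12 in controls and 0.24 with miR-130a). The control mean was 8.70 ± 0.06 and the miR-130a mean 9.29 ± 0.13 (log2, SD over 3 arrays each), and the gene rose by 0.59 (SE 0.074), or 1.501-fold, at an adjusted p of 0.00672 (limma). The 95% confidence interval of the fold ran from 1.33 to 1.69. A larger difference was found for 0.467% of all genes tested. The rise passed with any 1 array left out, with differences of 0.54 to 0.66 and adjusted p of 0.0113 to 0.0435 (limma). Without negative control 3 it was 1.47-fold (adjusted p = 0.0133).

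The genes whose profile over the 6 arrays was most like that of PMAIP1, after each gene's control mean had been subtracted, were CDC42EP3, KLF5 and STEAP1, out of 22456 genes other than the members. CDC42EP3 encodes an effector of the small GTPase CDC42, KLF5 a Krüppel-like transcription factor, and STEAP1 a membrane protein abundant in prostate cancer. Their mean absolute distance to PMAIP1 was 0.033, 0.038 and 0.044 on the log2 scale. CDC42EP3 went from 7.08 to 7.69, KLF5 from 9.31 to 9.88 and STEAP1 from 6.96 to 7.57. These genes were picked for their likeness to PMAIP1 on the same arrays, which fixes the size of their differences, so no test is given for them.

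BCL2L11 encodes BIM, which can engage every anti-apoptotic member and is known as a target of FOXO factors. Its values were 6.70, 6.71 and 6.68 in controls and 6.50, 6.51 and 6.45 with miR-130a, so every miR-130a array was lower than every control array. The means were 6.70 ± 0.01 and 6.49 ± 0.03 (SD, n = 3 per arm), a level 1.16-fold lower with miR-130a (difference -0.21, SE 0.047), which did not pass (adjusted p = 0.0538, limma). The 95% confidence interval of the log2 difference ran from -0.32 to -0.10. Without negative control 3 the difference was -0.21 and passed (adjusted p = 0.0241), while leaving out any other array gave adjusted p of 0.0994 to 0.266 (limma). A second, dimmer row of the same gene lay at 4.17, 4.26 and 4.33 in controls and at 3.72, 4.25 and 4.21 with miR-130a. Its lowest value was that of miR-130a array 1, the arms overlapped, and the difference of -0.19 did not pass among all rows (adjusted p = 0.785, limma).

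BMF encodes a BH3-only protein that is tethered to the actin motor through a dynein light chain and is released by loss of attachment. It lay at 5.95, 5.97 and 6.23 in controls and at 6.23, 6.27 and 6.41 with miR-130a. Negative control 3 almost touched the lowest miR-130a array, the gap between the arms being 0.000649, whereas negative controls 1 and 2 lay clearly lower. The means were 6.05 ± 0.15 and 6.30 ± 0.09 (SD, n = 3 per arm; difference 0.25, SE 0.088), and the gene did not pass (adjusted p = 0.19, limma). Without negative control 3 the difference was 0.34, a 1.27-fold higher level that passed (adjusted p = 0.0254), and leaving out any other array gave adjusted p of 0.32 to 0.53 (limma). The control mean of BMF lay below that of the endothelial gene PECAM1 (6.37), so its level alone does not show that BMF is expressed.

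**Figure D1:**
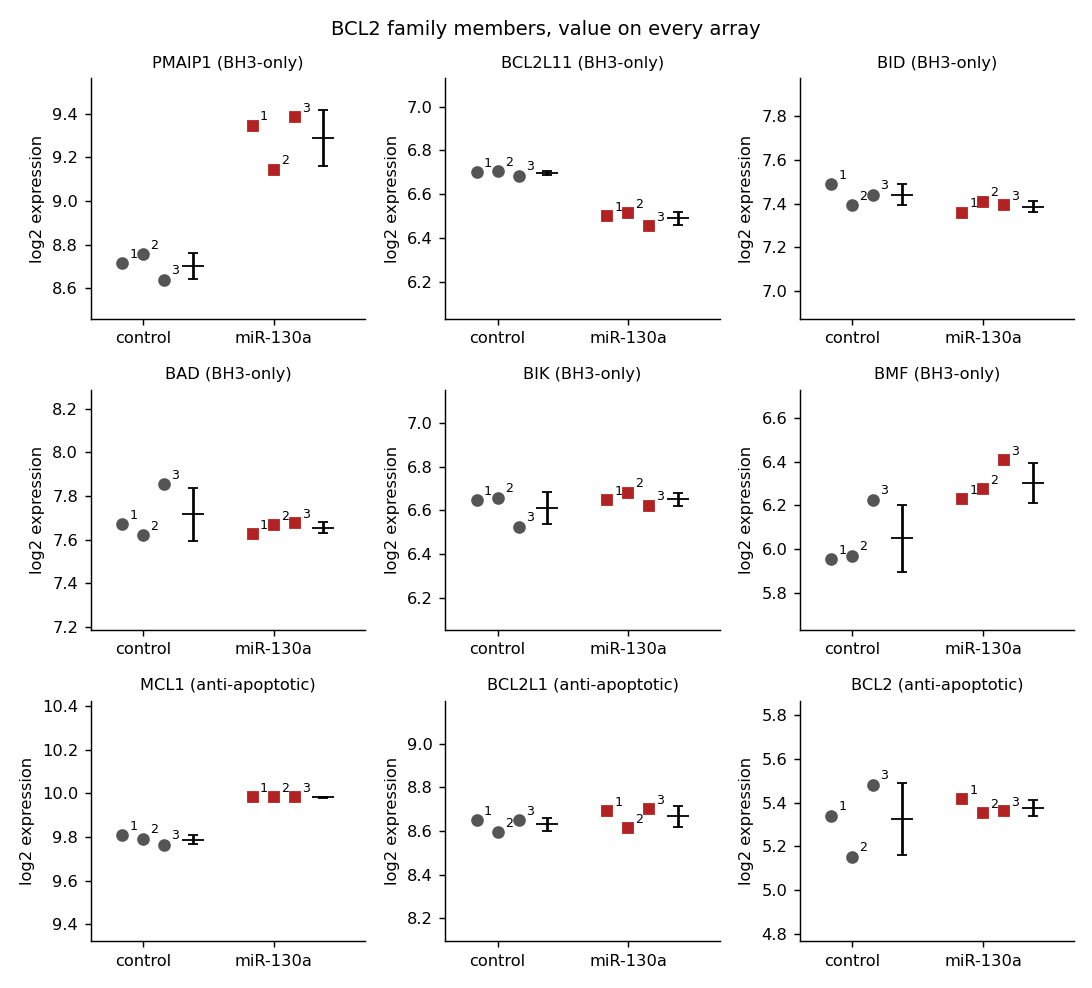
Log2 expression of the 9 measured members on every array, with negative controls as grey circles and miR-130a arrays as red squares, numbered by replicate; black marks give the mean and SD of 3 arrays, and every vertical axis spans the same number of log2 units. The PMAIP1 arms are separated by 0.39, MCL1 and BCL2L11 by 0.17 each, and negative control 3 lies apart from the other controls for BMF, BAD and BIK.

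The remaining BH3-only genes showed small differences, and none passed. BID, which caspase-8 cleaves to link death receptors to mitochondria, lay at 7.49, 7.39 and 7.44 in controls and 7.36, 7.41 and 7.39 with miR-130a. The arms overlapped, and the 95% confidence interval of the log2 difference ran from -0.17 to 0.06 (difference -0.05, adjusted p = 0.74, limma). BAD, which growth factor kinases phosphorylate and so keep away from BCL2 and BCL-XL, lay at 7.67, 7.62 and 7.85 in controls and 7.63, 7.67 and 7.68 with miR-130a. Its highest value was that of negative control 3, which was 0.21 above the mean of the other controls. The difference of BAD was -0.06 with all arrays (95% confidence interval -0.22 to 0.10, adjusted p = 0.815) and 0.01 without negative control 3 (adjusted p = 0.902, limma). BIK, a BH3-only protein of the endoplasmic reticulum, lay at 6.65, 6.66 and 6.53 in controls and 6.65, 6.68 and 6.62 with miR-130a. Here negative control 3 was the lowest array, and the difference was 0.04 with it (95% confidence interval -0.09 to 0.17, adjusted p = 0.865) and -0.003 without it (adjusted p = 0.97, limma). In fold terms the widest of these 3 intervals, that of BAD, ran from 0.858 to 1.07.

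MCL1 encodes a short-lived anti-apoptotic protein and is the main partner of NOXA. It lay at 9.81, 9.79 and 9.77 in controls and at 9.98 on each of the 3 miR-130a arrays, so the arms did not overlap. The means were 9.79 ± 0.02 and 9.98 ± 0.001 (SD, n = 3 per arm), a 1.14-fold higher level (difference 0.19, SE 0.046, 95% confidence interval 0.09 to 0.30) that did not pass (adjusted p = 0.0624, limma). It passed without negative control 3 (difference 0.18, adjusted p = 0.0294), and leaving out any other array gave adjusted p of 0.104 to 0.278 (limma). limma weighs a gene's own spread against that of all genes, so the close agreement of the miR-130a arrays narrows the interval only in part. The difference of PMAIP1 exceeded that of its partner MCL1 by 0.39 on the log2 scale, a gap read off after the values were seen and given without a test.

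BCL2L1, which encodes BCL-XL, lay at 8.65, 8.59 and 8.65 in controls and 8.69, 8.61 and 8.70 with miR-130a, with overlapping arms. Its difference was 0.04 (95% confidence interval -0.08 to 0.15, adjusted p = 0.861, limma). BCL2, the founding member of the family, lay at 5.34, 5.15 and 5.48 in controls and 5.42, 5.35 and 5.36 with miR-130a. All 3 miR-130a values fell inside the range of the controls, whose spread (SD 0.17) was the widest of any member, and the difference was 0.05 (95% confidence interval -0.14 to 0.25, adjusted p = 0.895, limma). It was -0.03 without negative control 2 and 0.13 without negative control 3 (adjusted p = 0.818 and 0.247, limma). Its row lay close to the median of all rows. The control mean of BCL2 (5.32) was also below that of the endothelial gene CDH5 (5.48), so its level alone does not show that BCL2 is expressed.

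**Figure D2:**
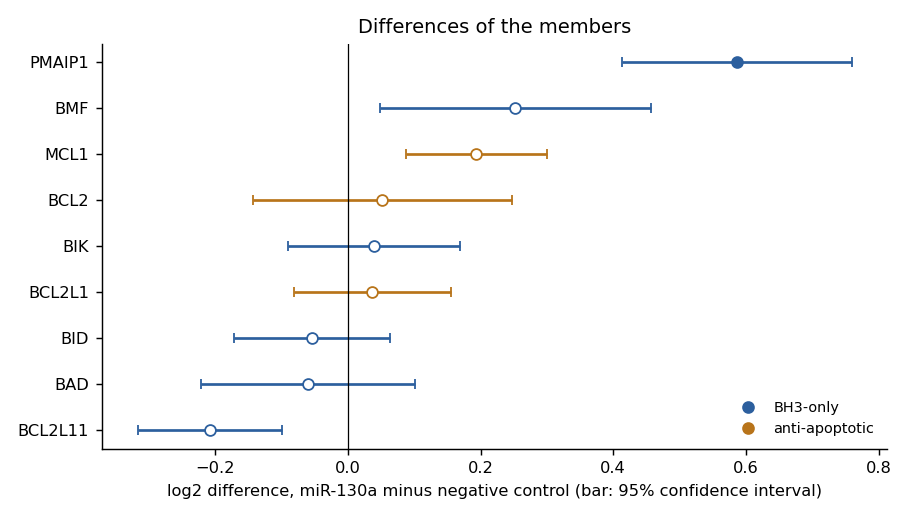
Log2 difference of each measured member, miR-130a minus negative control (points), with limma's 95% confidence interval (bars), for 3 arrays per arm; filled points passed an adjusted p of 0.05, blue marks BH3-only and brown anti-apoptotic genes. PMAIP1 (0.59) is the filled point, and the intervals of BMF, MCL1 and BCL2L11 exclude 0 although their adjusted p did not pass.

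**Figure D3:**
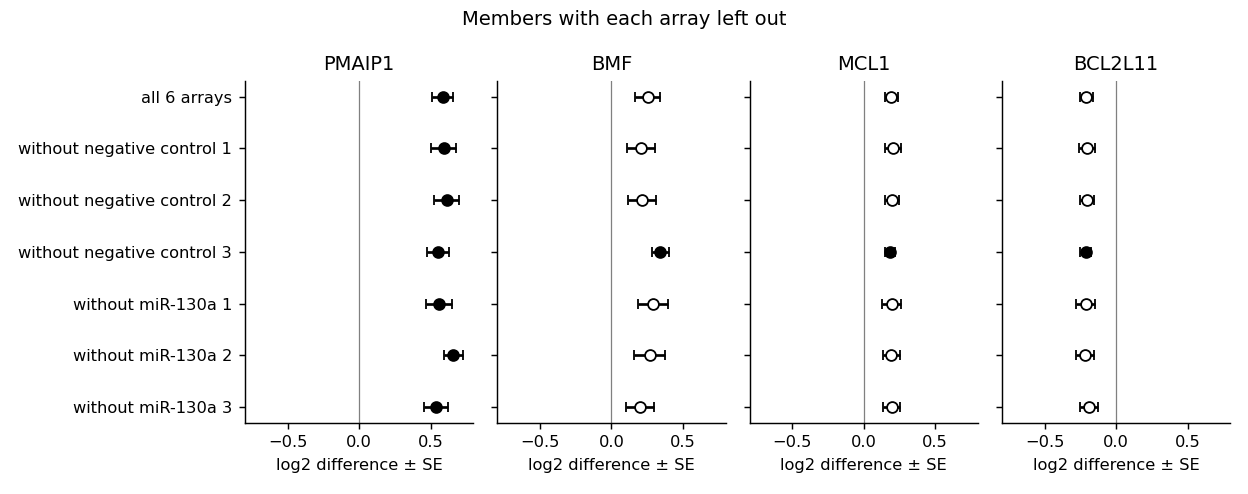
Log2 difference with its SE (bars) for PMAIP1, BMF, MCL1 and BCL2L11 with all 6 arrays and with each array left out; filled points passed an adjusted p of 0.05. PMAIP1 is filled throughout, and the other genes are filled in the fit without negative control 3.

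The setting of these genes was described with 93 other genes of the apoptosis pathway in 8 lists, of which 85 had a row of their own. Of the 85, 11 rose, 4 fell and 70 did not pass, which is 17.6% against 4.23% of all genes, and the median difference was -0.01, as for all genes. When only genes above the median row were tested, 20 of 80 such listed genes and 1400 of 16089 genes passed. The lists, here and in the paragraphs below, were chosen with earlier results of these data known. Their shares therefore describe the lists and do not test the pathway. The effectors on which the members act did not pass: BAK1 lay at 7.75 and 7.83 in the control and miR-130a arms (adjusted p = 0.55) and BAX at 7.23 and 7.16 (adjusted p = 0.741, limma), and with BOK these made 0 of 3. Of 14 other BCL2-like and BH3-like genes, 1 fell and 13 did not pass. BNIP3, a mitochondrial BH3-like protein best known for removing mitochondria by autophagy, fell 1.30-fold, from 9.48 to 9.09 (difference -0.38, SE 0.054, adjusted p = 0.0097, limma), and BCL2L13 lay at 7.42 and 7.52 (adjusted p = 0.353). The BNIP3 fall did not pass once either miR-130a 1 (adjusted p = 0.073) or miR-130a 3 (adjusted p = 0.0706, limma) was dropped.

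Among 16 measured transcription factors that are known to act on BH3-only genes, 6 rose, none fell and 10 did not pass, against 2.48% of all genes that rose and 1.74% that fell. DDIT3, the stress factor CHOP, rose 2.13-fold (difference 1.09, SE 0.108, adjusted p = 0.00286), and ATF4, which acts upstream of CHOP and NOXA, rose 1.30-fold (difference 0.38, adjusted p = 0.00773, limma). ATF3 rose by 0.54, the NF-kB subunit gene NFKB1 by 0.44 and MYC by 0.31 on the log2 scale. FOXO3, whose protein is known to activate BCL2L11 transcription, rose 1.31-fold from 8.04 to 8.44 (adjusted p = 0.00957, limma). BCL2L11 itself lay lower on every miR-130a array in its brighter row, without passing (adjusted p = 0.0538, limma), and the arms of its dimmer row overlapped. A link between FOXO3 and BCL2L11 was not tested. DDIT3 passed with any 1 array left out. Dropping negative control 1 cost ATF3 and NFKB1 their calls (adjusted p = 0.059 and 0.0572), as did dropping any 1 miR-130a array (0.052 to 0.0719 for ATF3 and 0.0689 to 0.0874 for NFKB1). FOXO3 and MYC were lost when any 1 miR-130a array was dropped (adjusted p = 0.0509 to 0.0716 and 0.0884 to 0.0971), and ATF4 when miR-130a 1 (0.0525) or miR-130a 3 (0.0508, limma) was.

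Upstream of BID, 2 of 10 measured genes of the death receptor arm rose and none fell, against rises of 2.48% and falls of 1.74% over all genes. FAS rose by 0.45 on the log2 scale (adjusted p = 0.011) and TNFRSF10A, a receptor of the death ligand TRAIL, rose 1.27-fold, from 8.21 to 8.56 (adjusted p = 0.0168, limma). Of 9 genes of IAP proteins and their antagonists, 2 rose and 1 fell. XAF1, an antagonist of XIAP, rose 1.51-fold (difference 0.59, SE 0.108, adjusted p = 0.026), BIRC2, which encodes cIAP1, rose 1.37-fold (adjusted p = 0.0464), and BIRC5, which encodes survivin, fell 1.30-fold (adjusted p = 0.011, limma). None of 6 apoptosome and caspase genes passed (4.23% of all genes did), the nearest being APAF1, the scaffold of the apoptosome, at 6.50 in controls and 6.13 with miR-130a (adjusted p = 0.0606, limma), with DFFA at 8.96 and 8.90. APAF1 passed without negative control 3 (adjusted p = 0.00775), and leaving out any other array gave adjusted p of 0.129 to 0.237 (limma). The call of FAS was lost when negative control 1 (adjusted p = 0.052), miR-130a 2 (0.0566) or miR-130a 3 (0.0637) was dropped, and that of TNFRSF10A when any 1 miR-130a array was (0.0905 to 0.0925). BIRC5 was lost on dropping negative control 1 (adjusted p = 0.0506), miR-130a 1 (0.0766) or miR-130a 3 (0.0772). XAF1 was lost on dropping negative control 2 (adjusted p = 0.0564) or any 1 miR-130a array (0.0667 to 0.113), and BIRC2 on dropping negative control 1 (0.128) or any 1 miR-130a array (0.0957 to 0.187, limma).

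Genes whose proteins act on the members after transcription gave 1 rise and 2 falls in lists of 10 and 17 measured genes, against rises of 2.48% and falls of 1.74% over all genes. Of 10 genes of the ubiquitin system, FBXW7, a ubiquitin ligase subunit that targets MCL1, rose 1.23-fold, from 6.31 to 6.61 (adjusted p = 0.0332), and USP13, a deubiquitinase of MCL1, lay at 7.36 and 7.08 (adjusted p = 0.0543, limma). USP13 passed without negative control 3 (adjusted p = 0.00701), and leaving out any other array gave adjusted p of 0.119 to 0.231 (limma). Of 17 kinases, phosphatases and anchoring proteins of BAD, BIM and BMF, DYNLL2, the dynein light chain that anchors BMF, fell 1.36-fold, from 8.61 to 8.17 (adjusted p = 0.0174). PIM2, a kinase that phosphorylates BAD, fell 1.23-fold, from 7.55 to 7.25 (adjusted p = 0.0368, limma). FBXW7 and PIM2 were lost on dropping negative control 1 (adjusted p = 0.108 and 0.137) or any 1 miR-130a array (0.115 to 0.154 and 0.104 to 0.182), and DYNLL2 on dropping negative control 1 (0.0785), miR-130a 1 (0.0958) or miR-130a 3 (0.0852, limma).

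**Figure D4:**
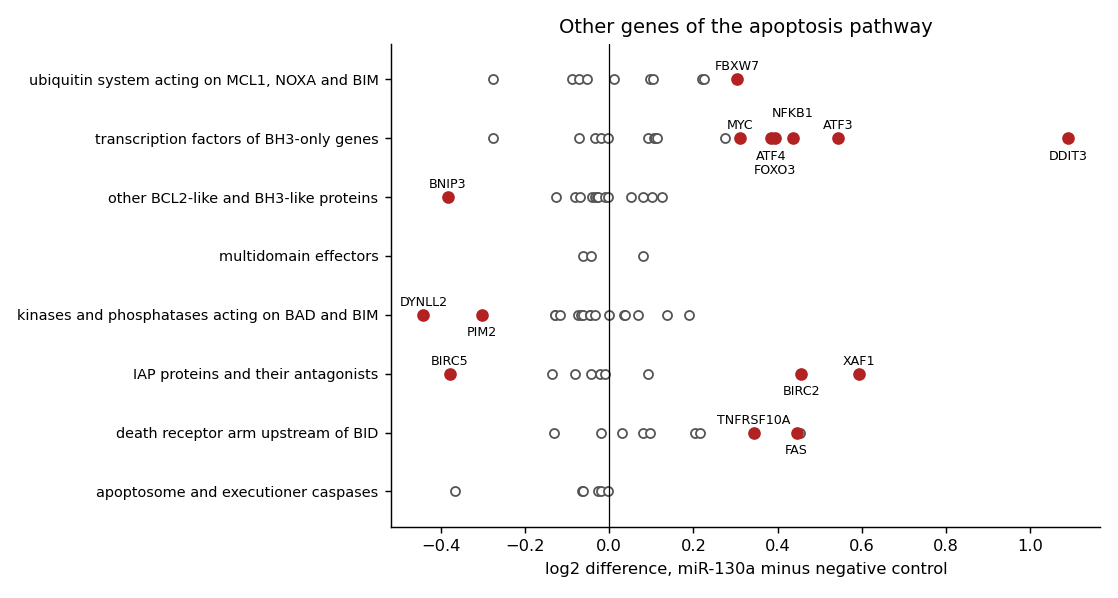
Log2 difference, miR-130a minus negative control, of 85 other apoptosis genes in 8 lists; each point is 1 gene, and filled red points, which are named, passed an adjusted p of 0.05 (limma, 3 arrays per arm). The list of transcription factors holds 6 red points, all to the right of 0, and the lists of multidomain effectors and of apoptosome genes hold none.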

How the data were processed

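Total RNA of 6 PC3 cultures was labelled with biotin and hybridised to Affymetrix arrays. The submitters' processing notes name RMA and Affymetrix Expression Console for the log2 values that the authors deposited; versions and genome build are not given in the sources used here, and the log2 scale was read from the range of the values. Of 67528 rows with values, 23781 carried 1 gene symbol, 1543 several and 42204 none; symbols were updated through Entrez identifiers (21497 matched), and the brightest of several rows was kept, which left 22465 genes.

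Arms were compared with limma 3.58.1 in R 4.3.3 (lmFit and eBayes, two-sided), with Benjamini-Hochberg adjustment over all 22465 genes and a threshold of 0.05. SE is limma's moderated standard error. The number of arrays limits the precision. The fit was tested on simulated data. The members and gene lists were chosen with earlier results of these data known. All members were named; of each list, every gene that passed and the 2 with the smallest p were named, as were the 3 genes most like PMAIP1. Alternatives were the replicate number as a block, array weights, a filter on dim rows, median centring, a repeated quantile normalization, averaging a gene's rows, a trended robust variance prior, testing all rows, a 1.5-fold test and leaving out each array.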

Additional observations from a re-analysis of the deposited data

How the results depend on the processing

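PMAIP1 was the called member in 15 of 16 alternatives and missed the threshold in the test against a change of 1.5-fold, since its own fold is 1.501. The count of members called, 1 with all settings as reported, was 3 with a filter on dim rows, 2 with a second quantile normalization, 5 with array weights, 3 with trend and robust options and 0 against 1.5-fold; it ran from 1 to 4 with 1 array left out. MCL1 and BCL2L11 joined PMAIP1 with the filter on dim rows (adjusted p = 0.0324 and 0.0273) and with trend and robust options (0.0139 and 0.0438, limma). MCL1 alone joined it with a second quantile normalization (adjusted p = 0.0327, limma). Array weights added MCL1 (adjusted p = 0.00209), BCL2L11 (0.0013), BMF (0.00244) and BID (0.0367, limma). The count over all genes, 950 of 22465, was 1400 of 16089 with the filter on dim rows. It was 520 with median centring, 7658 with array weights, 1449 with trend and robust options, 448 when all rows were tested and 9 against 1.5-fold. It ran from 237 to 2252 with 1 array left out. The count over other apoptosis genes, 15 of 85, was 20 of 80 with the filter on dim rows, 10 with median centring and 47 with array weights. It was 1 when all rows were tested and 0 against 1.5-fold, and ran from 1 to 18 with 1 array left out. Median centring cost NFKB1 (adjusted p = 0.0512), BIRC5 (0.056), PIM2 (0.0655), FBXW7 (0.0966) and BIRC2 (0.0999, limma) their calls. FBXW7 was also lost with a second quantile normalization (adjusted p = 0.0565, limma). With 1 array left out the difference ran from -0.108 to 0.0094 for BAD and from -0.0029 to 0.0636 for BIK, turning sign without negative control 3, and from -0.0344 to 0.131 for BCL2, turning sign without negative control 2. Array weights, whose estimation stopped before convergence, ranged from 0.121 for negative control 3 to 5.64 for negative control 1. Fits without an array also test with fewer arrays; other causes were not tested. Deviations of same-numbered arrays from their arm means correlated at -0.0674, 0.0585 and 0.0893, so the numbers were not taken as pairs; with the replicate number as a block, 818 genes, 1 member and 15 other apoptosis genes passed, with PIM2 lost (adjusted p = 0.0649) and APAF1 gained (adjusted p = 0.0278), and PMAIP1 had an adjusted p of 0.00695 (limma).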
